A study of Zea mays with 18 samples.

Results

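Leaf was compared with root in maize seedlings at the 4-leaf stage, across every miRNA listed with enough reads in the counts from plants at sufficient phosphate. The members were all entries with at least 10 counts in at least 2 of the 8 libraries in that table, and entries of a family with identical counts in every library were taken once. This gave 149 of 197 entries, 97 of them guide strands and 52 star strands, in 25 families. The comparison rests on 4 of the 18 libraries in the series.

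All plants were the inbred line Q319, grown in nutrient solution. The study moved part of the seedlings to low phosphate (5 μM KH2PO4) and kept the rest at sufficient phosphate (1000 μM KH2PO4). The 2 leaf and 2 root libraries compared here came from sufficient phosphate on day 8, the 4-leaf stage. Another 2 leaf and 2 root libraries from sufficient phosphate on day 0, the 3-leaf stage, entered the same statistical fit. Set beside the results were 1 leaf and 1 root library from low phosphate on day 8, and for 7 entries the day 0 libraries of that series. A biological repeat pooled segments of 15 to 20 plants, so the spread between libraries is a spread between pools. The tissue held many cell types, so fewer cells of a type and less of a miRNA per cell cannot be told apart. The table holds miRNAs only, so neither organ could be checked against marker genes. The day and stage of the 2 root libraries rest on their titles and tissue labels, since another label of theirs gives day 0.

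Plant miRNAs are cut from the stem of a folded precursor, the hairpin. One strand, the guide, is loaded into an Argonaute protein and directs the cutting or silencing of messenger RNAs, while the other strand, the star (written with an asterisk), is mostly degraded. Many families are shared by all land plants and act on transcription factors that pattern leaves and roots, while others adjust nutrient use.

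The day 8 libraries held 13284761 and 13130158 counts over all listings in leaf, and 10524030 and 8528196 in root, and a read that fits several near-identical entries is listed under each. Normalisation factors (TMM, the trimmed mean of M values of edgeR) were 0.937 and 0.734 in leaf and 1.26 and 1.23 in root. After this normalisation the median absolute log2 difference between replicates was 0.459 in leaf and 0.165 in root. These differences, and the SDs of levels below, also carry the normalisation factors and are not a spread of the pools alone. In both organs 108 entries reached 10 counts in each library. A further 12 did so in leaf only, 20 in root only and 9 in neither organ. Counted over the 4 day 8 libraries alone, 143 entries met the filter, so the rest passed through day 0 libraries. Entries that passed the filter mainly through 1 organ were kept for being high there. The counts of entries below, and the adjusted p-values of such entries, therefore describe the list and support nothing beyond it.

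With edgeR's quasi-likelihood test at a Benjamini-Hochberg adjusted p of 0.05, 113 of 149 entries (75.8%) differed between leaf and root on day 8. Of these, 58 (38.9%) were higher in leaf and 55 (36.9%) were lower in leaf. More than 4-fold differences were seen in 36 entries higher in leaf and in 31 lower in leaf. The leaf libraries did not overlap the root libraries in 117 entries (78.5%). The median log2 fold of leaf over root over all 149 entries was 0.26 with TMM. It was -0.04 with the median-ratio scaling (RLE) and -0.34 when libraries were scaled to their listed reads. Under these 3 scalings 101 of the 113 entries were called in the same direction, 46 higher and 55 lower in leaf. The split was 46 higher and 63 lower with listed reads. It was 78 higher and 45 lower when the miR156 entries were kept out of the TMM factors, an alternative chosen after seeing the data, in which the median log2 fold was 0.67.

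**Figure D1:**
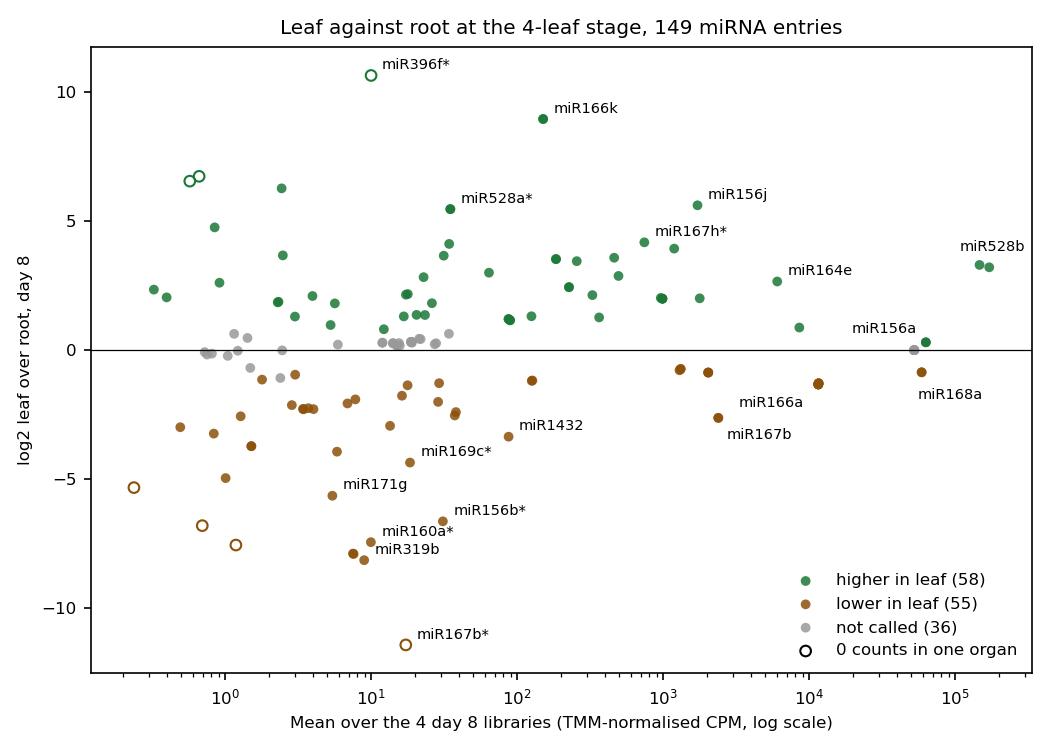
Each point is 1 of 149 miRNA entries, with its mean level over the 4 day 8 libraries (TMM-normalised CPM, log scale) on the horizontal axis and the log2 fold of leaf over root on the vertical axis. Green points were higher in leaf (58), brown points lower in leaf (55) and grey points not called (36). Differences reached miR528b, the most abundant entry in leaf, and miR168a, with miR168b the most abundant in root. Open circles had 0 counts in 1 organ, where the fitted fold is not a bound.

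The copper group held the most abundant entry in leaf. Its families are induced by low copper in plants and act on messenger RNAs of copper proteins: miR397 on laccases, miR398 on copper/zinc superoxide dismutase, miR408 on plantacyanin and laccases, and miR528, a family of monocots, on several copper oxidases. All 14 copper entries tested were higher in leaf, against 58 of 149 over all entries. Their median log2 fold was 3.49 against 0.26 over all entries. All 14 were also higher in leaf under the other 2 scalings and on day 0. They are not independent, since several have nearly identical counts, such as miR398a and miR398b, miR408a and miR408b, and miR528a* and miR528b*.

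miR528b had 2759021 and 3280145 counts in leaf, against 389852 and 291708 in root. It was the most abundant entry in leaf, at 307985 ± 88220.1 CPM in leaf and 33299.5 ± 1301 CPM in root (SD, n = 2 each). The lower leaf library lay far above both root libraries, and the log2 fold was 3.21 (edgeR, adjusted p = 3.67e-07). miR528a shared most of those reads and had a log2 fold of 3.30. Their star strands were rarer and differed more between the organs: miR528a* had 604 and 730 counts in leaf and 16 and 15 in root, with a log2 fold of 5.47 (edgeR, adjusted p = 2.38e-07).

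miR397b had 4586 and 4672 counts in leaf, against 549 and 338 in root, and a log2 fold of 3.45 (edgeR, adjusted p = 4.97e-07). Its star strand was the more abundant of the pair, with 19970 and 23734 counts in leaf and 1793 and 1208 in root. miR398a had 3159 and 3518 counts in leaf and 364 and 242 in root, a log2 fold of 3.53 (edgeR, adjusted p = 4.6e-07). No library of one organ came near those of the other in either family. The differences of miR408 were the narrowest of the copper group. Counts of miR408a were 3523 and 3983 in leaf and 853 and 596 in root, a log2 fold of 2.44 (edgeR, adjusted p = 8.49e-06). miR408b*, again the more abundant strand, had 23884 and 31525 counts in leaf and 8137 and 6328 in root, a log2 fold of 2.00 (edgeR, adjusted p = 2.07e-05).

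The phosphate group comprised miR827, which acts on SPX-domain proteins in phosphate signalling and transport, and miR399, which acts on PHO2, a ubiquitin-conjugating enzyme that limits phosphate uptake. All 4 entries tested were higher in leaf, against 58 of 149 over all entries. Their median log2 fold was 2.67 against 0.26 over all entries, and 2 of 4 were called when libraries were scaled to listed reads. miR827 had 1151 and 1107 counts in leaf and 152 and 136 in root, a log2 fold of 3.00 (edgeR, adjusted p = 1.12e-06). Its star strand had 495 and 639 counts in leaf and 49 and 44 in root, a log2 fold of 3.66. Neither strand overlapped between the organs. miR399 was near the detection limit in these phosphate-fed plants. miR399e had 8 and 5 counts in leaf and 1 and 2 in root, a ratio of leaf to root of 4.40 (95% counting interval 1.21 to 24.1). miR399i had 6 and 5 counts in leaf and 1 and 1 in root, a ratio of 5.59 (1.22 to 51.9), and both intervals cover counting error only. The call of miR399e was kept in 12 of 18 alternatives. It was lost with listed reads, with no filter, with every listing counted and with DESeq2, and also without leaf replicate 1 on day 8 (edgeR, adjusted p = 0.0855) and without root replicate 1 on day 8 (edgeR, adjusted p = 0.118) (range over the alternatives 0.00167 to 0.137). miR395, which acts on enzymes and transporters of sulfate, was rare in both organs, and 0 of its 4 entries were called. miR395a had 8 and 6 counts in leaf and 7 and 8 in root. miR395b*, with 7 and 15 counts in leaf and 21 and 16 in root, had a log2 fold of -0.70 (edgeR, adjusted p = 0.277). It was called lower in leaf with RLE, with listed reads (-1.29) and without leaf replicate 2 on day 8 (-1.52).

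**Figure D2:**
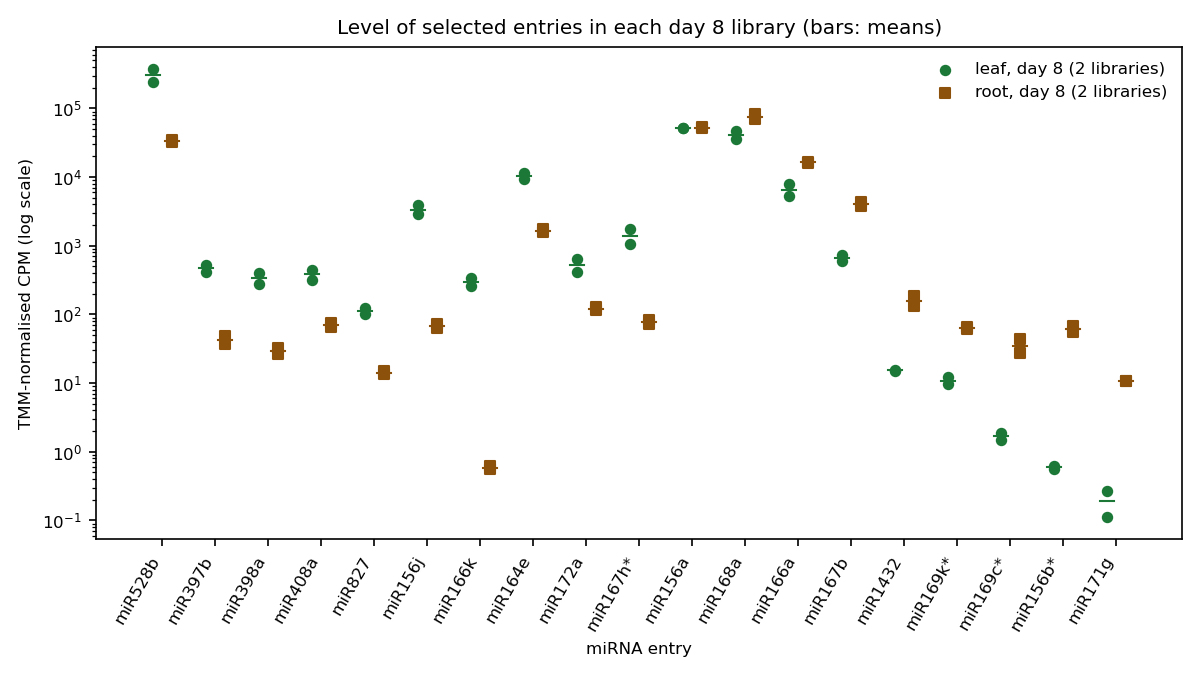
Levels of 19 entries in each day 8 library (TMM-normalised CPM, log scale), with leaf libraries as green circles, root libraries as brown squares and short bars for the mean of 2 libraries. The organs overlapped for miR156a and for none of the other entries drawn, and miR166k stood at about 300 CPM in leaf and 0.585 CPM in root.

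The phase change group comprised miR156 and miR529, which act on SPL transcription factors and so hold plants in the juvenile phase, and miR172, which acts on AP2-like factors and promotes the adult phase. Of 22 entries, 6 were higher in leaf, 5 were lower and 11 were not called, with a median log2 fold of -0.01. Over all 149 entries these counts were 58, 55 and 36, with a median of 0.26. In the group, the number higher in leaf was 4 with RLE and 3 with listed reads. With listed reads 11 of 22 were lower in leaf, against 63 of 149 over all entries.

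With TMM the abundant miR156 guides stood at like levels in the 2 organs, and their difference followed the scaling. miR156a had 591137 and 460737 counts in leaf and 603096 and 470612 in root, and levels of 52322 ± 424 CPM in leaf and 52587 ± 494 CPM in root (SD, n = 2 each). These levels and their narrow SDs depend on the TMM factors, to which the miR156 entries contribute. Made without those entries, the day 8 factors were 0.699 and 0.785 in leaf and 1.29 and 1.88 in root. The organs overlapped and the log2 fold was -0.01 (edgeR, adjusted p = 0.962), but scaled to listed reads it was -0.58 (edgeR, adjusted p = 0.00151), the lowest of 19 alternatives, and the highest was 0.47, with TMM factors made without miR156. miR156c, miR156e, miR156f, miR156g and miR156l shared nearly all of its reads and are not independent of it. miR156b and miR156d, at 0.30 each with TMM (edgeR, adjusted p = 0.00872), were at -0.28 with listed reads, so their direction depended on the scaling. Their call was kept in 8 of 19 alternatives. It was lost with listed reads, RLE, DESeq2, no filter, every listing counted, only the 4 day 8 libraries in the fit, the filter over those libraries, and without each of the 4 root libraries in turn.

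Less abundant members of the family differed in opposite directions. miR156j had 32165 and 34163 counts in leaf, against 832 and 576 in root, a log2 fold of 5.62 (edgeR, adjusted p = 4.46e-08). miR156k was less divided, with 117955 and 102560 counts in leaf and 59210 and 62019 in root, a log2 fold of 0.87 (edgeR, adjusted p = 0.000406). The star strand miR156b* ran the other way, with 7 and 5 counts in leaf and 627 and 608 in root, a log2 fold of -6.65 (edgeR, adjusted p = 1.11e-07).

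miR529 had 59 and 67 counts in leaf and 14 and 16 in root, a log2 fold of 2.09 (edgeR, adjusted p = 0.000167). miR172a, the guide listed with identical counts for several miR172 hairpins, had 4691 and 5725 counts in leaf and 1329 and 1140 in root, a log2 fold of 2.13 (edgeR, adjusted p = 2.81e-05). Both miRNAs, which act on opposite sides of the phase change, were thus higher in leaf without overlap. The star strand miR172b* was lower in leaf, with 2 and 2 counts in leaf and 30 and 27 in root, a log2 fold of -3.73 (edgeR, adjusted p = 0.000235).

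miR166 acts on HD-ZIP III transcription factors, which set the upper side of leaves and pattern vascular tissue. Of its 17 entries, 12 were lower in leaf, 4 were higher and 1 was not called, with the same counts under the other 2 scalings. Over all 149 entries, 55 were lower and 58 higher with TMM. The abundant guides were lower in leaf. miR166a had 59025 and 69178 counts in leaf and 184179 and 151696 in root, a log2 fold of -1.34 (edgeR, adjusted p = 3.91e-05), and miR166b, miR166c, miR166e and miR166i shared its reads. miR166f, miR166g and miR166h had log2 folds of -1.29.

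The 4 entries higher in leaf were miR166j, miR166k, miR166l and miR166m. miR166k had 2927 and 3007 counts in leaf, against 7 and 5 in root, a 500-fold higher level in leaf (log2 fold 8.97, edgeR, adjusted p = 1.77e-07). miR166j had nearly identical counts and cannot be separated from it. miR166m had 8130 and 8655 counts in leaf and 795 and 653 in root, a log2 fold of 3.58 (edgeR, adjusted p = 3.06e-07). Counts of miR166l were 8310 and 8824 in leaf and 1201 and 1185 in root, a log2 fold of 2.87 (edgeR, adjusted p = 1.06e-06). The genes MIR166k and MIR166m are neighbours in RefSeq's annotation of the assembly Zm-B73-REFERENCE-NAM-5.0, where 126 of 132 hairpin names were matched. Star strands of the family were lower in leaf in 3 of 4 cases. miR166a* had 28 and 33 counts in leaf and 256 and 226 in root, a log2 fold of -2.95 (edgeR, adjusted p = 2.01e-06). One listing named miR166d lay within 1 read of miR166b* in each day 8 library and is counted here as its own entry. By its name it stands among the guides, although its counts nearly repeat those of a star strand.

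**Figure D3:**
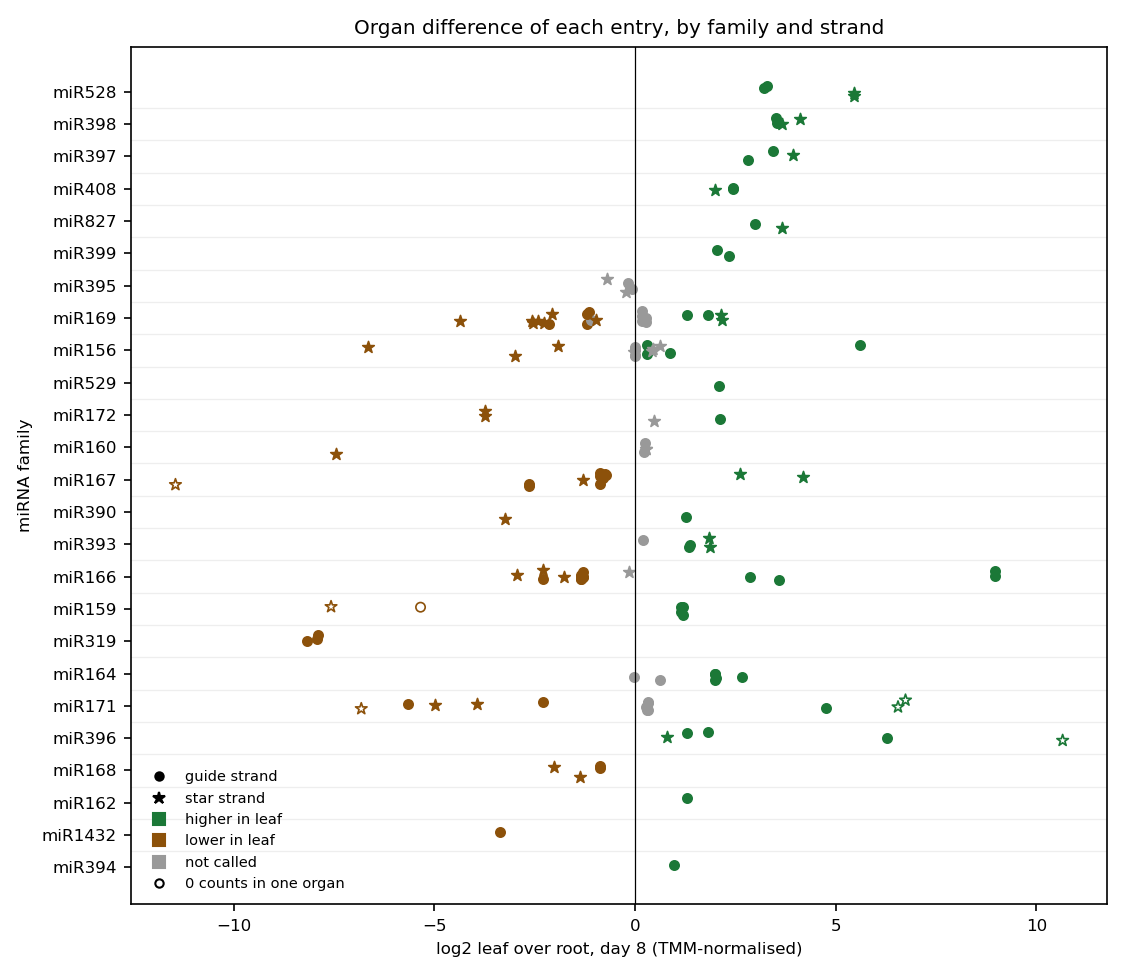
Log2 fold of leaf over root on day 8 for each entry by family, with circles for guides, stars for star strands, green for higher in leaf, brown for lower in leaf, grey for not called and open symbols for 0 counts in 1 organ. The copper and phosphate families lie wholly on the leaf side, while 8 families hold entries called in both directions.

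The auxin group comprised miR160 and miR167, which act on auxin response factors (ARFs), miR390, which triggers the TAS3 small RNAs that act on further ARFs, and miR393, which acts on the TIR1/AFB auxin receptors. Of its 24 entries, 12 were lower in leaf, 7 were higher and 5 were not called, with the same counts of higher and lower under the other 2 scalings. Over all 149 entries, 55 were lower and 58 higher with TMM. All 8 miR167 guides were lower in leaf. miR167b had 6711 and 6392 counts in leaf and 43728 and 39380 in root, a log2 fold of -2.64 (edgeR, adjusted p = 3.14e-07), and miR167a shared its reads. The other guides were less divided, as in miR167h with 9078 and 10159 counts in leaf and 18255 and 15201 in root, a log2 fold of -0.75 (edgeR, adjusted p = 0.00888).

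Star strands of miR167 split by hairpin. miR167b* had 0 and 0 counts in leaf and 344 and 349 in root, so it was at least 227-fold higher in root, against a floor of 3 counts over the 2 leaf libraries. miR167h* had 11942 and 15477 counts in leaf and 946 and 650 in root, a log2 fold of 4.18 (edgeR, adjusted p = 3.06e-07). The 2 hairpins thus gave star strands on opposite sides, each without overlap between the organs.

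The miR160 guides were not called: miR160a had 276 and 302 counts in leaf and 336 and 185 in root, a log2 fold of 0.22 (edgeR, adjusted p = 0.498). Its star strand miR160a* had 0 and 2 counts in leaf and 248 and 160 in root, a ratio of root to leaf of 201 (95% counting interval 55.3 to 1664). The other star strands of the family were not called: miR160b* had 125 and 133 counts in leaf and 122 and 97 in root, a log2 fold of 0.28 (edgeR, adjusted p = 0.383), and miR160g* had 126 and 133 counts in leaf and 122 and 97 in root. miR390a had 5070 and 5092 counts in leaf and 2403 and 1950 in root, a log2 fold of 1.26 (edgeR, adjusted p = 0.00051). Of the 5 miR393 entries, 4 were higher in leaf. Counts of miR393a were 357 and 313 in leaf and 155 and 113 in root, a log2 fold of 1.36 (edgeR, adjusted p = 0.000204), while miR393b, with 64 and 62 counts in leaf and 65 and 47 in root, was not called.

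The growth regulator group comprised miR164, which acts on NAC factors that set organ boundaries, miR319, which acts on TCP factors, miR396, which acts on growth-regulating factors, miR171, which acts on GRAS factors, and miR159, which acts on GAMYB factors. Of 35 entries, 17 were higher in leaf, 10 were lower and 8 were not called, with a median log2 fold of 0.63. Over all 149 entries, 58 were higher and 55 lower, with a median of 0.26. With listed reads 12 of 35 were higher in leaf, against 46 of 149 over all entries.

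miR164 was higher in leaf in 5 of 7 entries. miR164e had 104986 and 101581 counts in leaf and 17907 and 15547 in root, a log2 fold of 2.66 (edgeR, adjusted p = 1.88e-07). miR164a, with 11355 and 18940 counts in leaf and 5356 and 2910 in root, varied more between replicates but did not overlap, and its log2 fold was 1.99 (edgeR, adjusted p = 0.00038). miR164h, with 12 and 12 counts in leaf and 14 and 11 in root, was not called.

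All 3 miR319 entries were nearly confined to root in these libraries. miR319b had 0 and 1 counts in leaf and 186 and 174 in root, a ratio of root to leaf of 355 (95% counting interval 63.2 to 14040). miR319a and miR319c likewise had 1 leaf count each. miR396 ran the other way, with all 5 entries higher in leaf (4 with listed reads). Counts of miR396c, its most abundant entry, were 1604 and 1890 in leaf and 738 and 712 in root, a log2 fold of 1.31 (edgeR, adjusted p = 0.00097). miR396e had 37 and 56 counts in leaf and 0 and 1 in root, a ratio of leaf to root of 94.4 (95% counting interval 16.5 to 3770). miR396f* had 160 and 227 counts in leaf and 0 and 0 in root, at least 131-fold higher in leaf against a floor of 3 counts over the 2 root libraries. MIR396a and MIR396e are neighbouring genes in the RefSeq annotation, and entries of both were higher in leaf.

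In miR171 the abundant guides were not called, while rarer entries differed strongly. miR171b, for instance, had 172 and 234 counts in leaf and 198 and 146 in root, a log2 fold of 0.31 (edgeR, adjusted p = 0.398). miR171g had 3 and 1 counts in leaf and 121 and 96 in root, a log2 fold of -5.66 (edgeR, adjusted p = 3.12e-07). miR171h* was also lower in leaf, with 8 and 6 counts in leaf and 113 and 108 in root. In this family 3 star strands were at 0 in 1 organ. miR171d* had 13 and 10 counts in leaf and 0 and 0 in root, at least 7.79-fold higher in leaf. miR171e* had 12 and 14 counts in leaf and 0 and 0 in root, at least 8.80-fold higher in leaf. miR171i* had 0 and 0 counts in leaf and 14 and 14 in root, at least 9.19-fold higher in root.

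In miR159, 4 guides that share reads were higher in leaf. miR159a had 1743 and 807 counts in leaf and 677 and 462 in root, a log2 fold of 1.15 (edgeR, adjusted p = 0.00991). Its lower leaf library lay closer to root than to the other leaf library, and with listed reads 0 miR159 guides were higher in leaf. miR159c* had 0 and 0 counts in leaf and 21 and 26 in root, at least 15.4-fold higher in root. Its guide miR159c had 0 and 0 counts in leaf and 7 and 3 in root, at least 3.28-fold higher in root.

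miR169 acts on the NF-YA subunits of the CCAAT-binding factor, which take part in drought and nutrient responses. Of 22 entries, 11 were lower in leaf, 4 were higher and 7 were not called, with a median log2 fold of -1.02 (12 lower and 4 higher under both other scalings). Over all 149 entries, 55 were lower and 58 higher with TMM, with a median of 0.26. Of 9 miR169 star strands, 7 were lower in leaf, and of 13 guides 4 were. Over all families 25 of 52 star strands and 30 of 97 guides were lower in leaf. miR169c* had 21 and 13 counts in leaf and 308 and 390 in root, a log2 fold of -4.37 (edgeR, adjusted p = 3.67e-07). Its guide miR169c differed less, with 727 and 778 counts in leaf and 1673 and 1829 in root, a log2 fold of -1.20 (edgeR, adjusted p = 0.00142). miR169k* had 137 and 85 counts in leaf and 696 and 598 in root, a log2 fold of -2.54 (edgeR, adjusted p = 3.23e-06), while its guide miR169k, with 150 and 162 counts in leaf and 146 and 136 in root, was not called. The 4 entries higher in leaf were both strands of miR169a and miR169b. miR169a had 387 and 413 counts in leaf and 128 and 106 in root, a log2 fold of 1.82 (edgeR, adjusted p = 0.000194), and miR169a* had 269 and 303 counts in leaf and 57 and 72 in root, a log2 fold of 2.17.

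The silencing machinery group comprised miR168, which acts on ARGONAUTE1, the main partner of plant miRNAs, and miR162, which acts on DICER-LIKE1, the enzyme that cuts miRNA hairpins. All 4 miR168 entries were lower in leaf. The guides miR168a and miR168b had identical counts on day 8, so they are not independent, and were together the most abundant entries in root. miR168a had 404573 and 418542 counts in leaf and 799152 and 735856 in root. Its levels were 41636 ± 7951 CPM in leaf and 75913 ± 8157 CPM in root (SD, n = 2 each). The log2 fold was -0.87 (edgeR, adjusted p = 0.000119), but with the miR156 entries kept out of the TMM factors it was -0.40 (edgeR, adjusted p = 0.151), the 1 of 19 alternatives that ended the call (range of adjusted p 3.58e-08 to 0.151). miR168b* had 126 and 102 counts in leaf and 508 and 427 in root, a log2 fold of -2.02 (edgeR, adjusted p = 1.54e-05). miR162 had 33 and 50 counts in leaf and 20 and 15 in root, a log2 fold of 1.30 (edgeR, adjusted p = 0.00912). Its call was lost with listed reads and without leaf replicate 2 on day 8 (log2 fold 0.77, edgeR, adjusted p = 0.0811), and kept in the other 17 alternatives (lowest adjusted p 0.000163). Outside these groups, miR1432, which acts on an acyl-CoA thioesterase in rice, had 171 and 138 counts in leaf and 1509 and 1671 in root, a log2 fold of -3.37 (edgeR, adjusted p = 6.79e-07).

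The ratio of a star to the guide of the same name within a library does not depend on the scaling between libraries. The log2 ratio of star to guide, with 0.5 added to each count, was tested with limma for 55 hairpins with both strands past the filter. It differed between leaf and root in 26 (47.3%), being higher in leaf in 8 (14.5%) and lower in leaf in 18 (32.7%). Some star strands, such as miR160a*, passed the filter through 1 organ only. Calls and p-values of their ratios, and the counts of calls, thus support nothing beyond the list. Where a star had 0 counts, the size of the ratio rests on the 0.5 added. Guide counts are often shared by several hairpins (miR160a with miR160b, and miR172b with miR172c and miR172d), so the ratio is not specific to 1 hairpin and such pairs are not independent.

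The star strand of miR167h exceeded its guide in leaf and not in root. It made up 56.8% and 60.4% of the reads of the pair in leaf, against 4.93% and 4.10% in root, a log2 difference of 4.91 (limma, adjusted p = 1.7e-07). miR167i, which shares most of these reads, gave 4.89. In miR160a the ratio differed in the other direction, although the star stayed below its guide in both organs: it was 0% and 0.658% of the pair in leaf and 42.5% and 46.4% in root, a log2 difference of -7.69 (limma, adjusted p = 0.000147). Both leaf values lay far below both root values. The ratios of miR160b and miR160g were not called, with log2 differences of 0.03 (limma, adjusted p = 0.966) and 0.00 (limma, adjusted p = 0.998).

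In miR169k the star was 47.7% and 34.4% of the pair in leaf and 82.7% and 81.5% in root, a log2 difference of -2.72 (limma, adjusted p = 0.00035). Star strands of miR156b were a small part of the pair in both organs, 0.00093% and 0.000791% in leaf and 0.0973% and 0.12% in root, but the log2 difference was -6.86 (limma, adjusted p = 1.7e-07). In the copper group the ratio of miR528b* to its guide was higher in leaf, with a log2 difference of 2.22 (limma, adjusted p = 0.000147). That of miR397b was not called (0.46, limma, adjusted p = 0.0617), nor was that of miR408b (-0.46, limma, adjusted p = 0.0826).

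In 7 hairpins the strands themselves were called in opposite directions. The guide was higher and the star lower in leaf for miR156b, miR172b, miR172d and miR390a, and the direction of the miR156b guide depended on the scaling. The guide was lower and the star higher in leaf for miR167c, miR167h and miR167i. On day 8 miR172b and miR172d had identical counts of both strands, and miR167h and miR167i had the same star counts. The 7 hairpins are therefore not independent cases. For miR172b the star was 0.0426% and 0.0349% of the pair in leaf and 2.21% and 2.31% in root, a log2 difference of -5.61 (limma, adjusted p = 0.000264). For miR390a it was 0.0394% and 0.0196% in leaf and 0.702% and 0.713% in root, a log2 difference of -4.27 (limma, adjusted p = 3.12e-05). miR390a* itself rests on 2 and 1 counts in leaf and 17 and 14 in root, a ratio of root to leaf of 10.2 (95% counting interval 3.17 to 52.0). For miR167c the star was 0.208% and 0.265% of the pair in leaf and 0.00688% and 0.00509% in root, a log2 difference of 5.09 (limma, adjusted p = 0.000563).

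**Figure D4:**
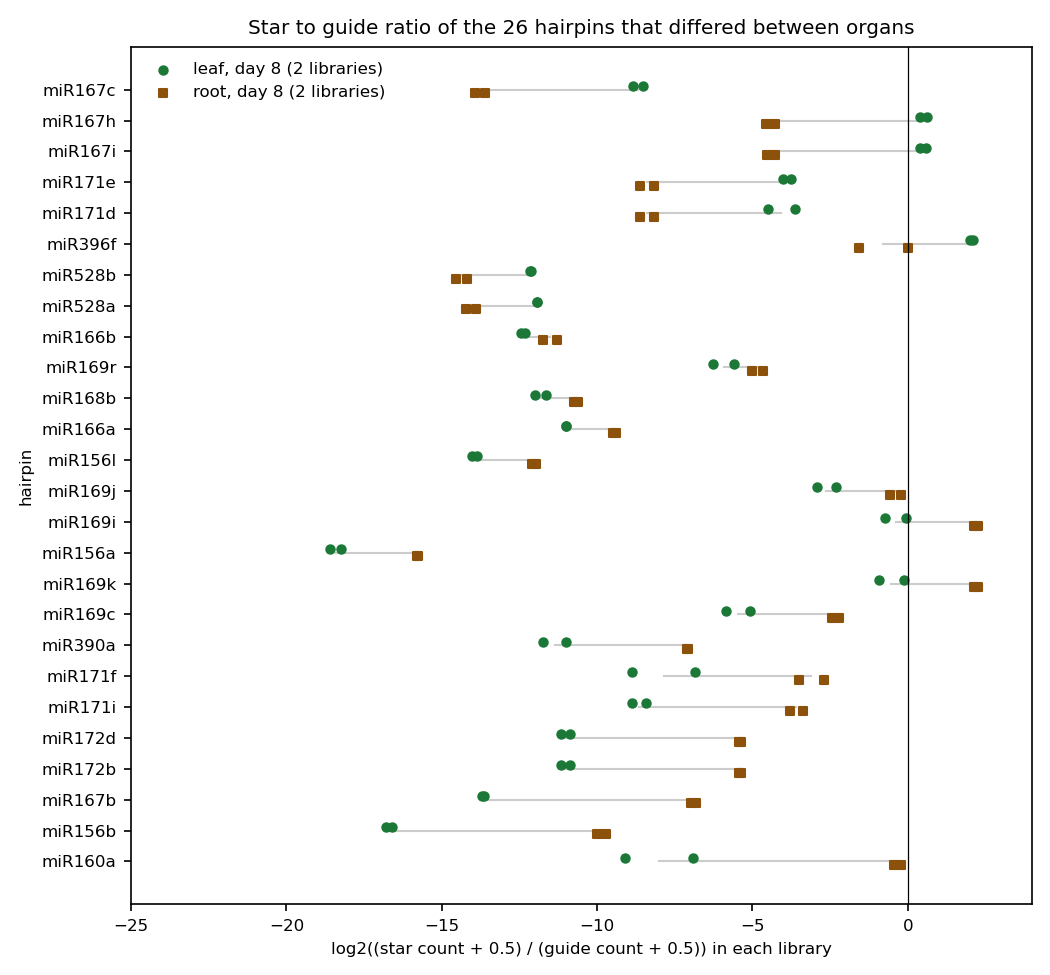
Log2 ratio of star to guide (0.5 added to each count) in each day 8 library for the 26 hairpins in which it differed, with leaf libraries as green circles, root libraries as brown squares and grey lines between the organ means. The ratio was higher in leaf in the upper 8 hairpins and lower in leaf in the other 18, and that of miR167h lay above 0 in both leaf libraries and below 0 in both root libraries.

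Day 0, the 3-leaf stage, gave the same comparison in younger seedlings. On that day, 119 of 149 entries (79.9%) were called. Of these, 106 were called in the same direction on both days, which is 93.8% of the day 8 calls and 89.1% of the day 0 calls. No entry was called in opposite directions, 7 were called on day 8 alone and 13 on day 0 alone. The difference between the days, tested as an interaction in edgeR, was called for 9 entries (6.04%), with 23 at an unadjusted p under 0.05. It was called for miR167h*, with log2 folds of leaf over root of 4.18 on day 8 and 2.71 on day 0 (difference 1.47, edgeR, adjusted p = 0.0441). miR169c* had log2 folds of -4.37 on day 8 and -1.99 on day 0 (difference -2.38, edgeR, adjusted p = 0.0421). The near-identical guides miR156a, miR156c, miR156e, miR156f, miR156g and miR156l and miR169k* made up the rest. The number of calls ranged from 0 to 20 when 1 library was left out, and it was 0 without either leaf library of day 0.

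The low-phosphate libraries of day 8 are a further leaf and a further root library of the same age, with 1 library an organ and so no test. Their values are reads per 1000000 clean reads (RPM), a level scaled differently from the counts above. Of the 113 called entries, 79 were listed above 0 in both organs (a deposited filler value for 0 reads was taken as 0), and 72 of these lay on the same side in leaf against root as at sufficient phosphate. This held for 38 of 45 entries higher in leaf and for 34 of 34 lower in leaf. Entries not called also lay more often below root, with 8 above and 24 below. Many of these share reads, as the abundant miR156 guides do, and are not independent. Phosphate, data set and scaling differ together here, and the cause was not tested. miR528b had 82906 RPM in leaf and 1632 RPM in root, miR166j 263 RPM in leaf and 0.517 RPM in root, and miR156j 1278 RPM in leaf and 82.5 RPM in root. miR394a, called higher in leaf at sufficient phosphate with TMM (log2 fold 0.97), was listed in root only, at 2.33 RPM. Its call was lost with RLE (0.63) and with listed reads (0.34). miR167b* was listed in root only, at 29.7 RPM, and miR396f* in leaf only, at 28.7 RPM. The 7 entries on the other side were miR156b, miR156d, miR169b and the 4 miR159 guides. miR159a had 1501 RPM in leaf and 2514 RPM in root. The 4 miR159 guides were also lower in leaf on day 0 of this series, with miR159a at 1167 RPM in leaf and 1632 RPM in root. The day 0 counts at sufficient phosphate had called miR159a higher in leaf (log2 fold 0.98). So for miR159 the 2 data sets differed on day 0 as well, and the cause was not tested. miR156b, miR156d and miR169b were higher in leaf on day 0 of the low-phosphate series. miR827, called higher in leaf at sufficient phosphate, had 816 RPM in leaf and 648 RPM in root at low phosphate.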

How the data were processed

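Small RNA tags of 50 nt from HiSeq sequencing were cleaned and annotated and known miRNAs counted, per the labels' protocols. Not given in the sources used here were the aligner, the genome build and the miRBase release. The sufficient-phosphate values the authors deposited were read as raw counts, being whole numbers. A suffix of their column names is not explained, and headings of fold columns name the opposite organ, so the value blocks were followed. The deposited low-phosphate values are a signal, counts per 1000000 clean reads. Of its 10 libraries, the 2 of day 8 were used, and those of day 0 for 7 entries only.

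Counts were tested in R 4.3.3 with edgeR 4.0.16 (TMM, robust quasi-likelihood, 1 coefficient per group over 8 libraries, 4 residual degrees of freedom), leaf over root, with Benjamini-Hochberg adjustment over 149 entries at 0.05. CPM values use TMM effective library sizes, 8856503 to 11392782 in the day 8 libraries. Star to guide ratios were tested with limma 3.58.1. Counting intervals are exact 95% binomial intervals, and folds against 0 use a floor of 3 counts over the group. Reads carry no molecular identifiers, so both cover counting error only. Alternatives included DESeq2 1.42.0, limma-voom, other scalings and filters, and each library left out.

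Named by rule were up to 10 highest and 10 lowest called folds with a mean of at least 10 CPM and no overlap between organs, extremes and the most abundant entry of each group of families, the 5 most abundant entries of each organ and the 5 most abundant not called, entries at 0 in 1 organ with at least 10 counts in the other, extreme star to guide ratios, and interaction calls. Others illustrate their family and were chosen after their values were seen. Members and groups of families were chosen with earlier results of these data known. Mature sequences are not given here.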

Additional observations from a re-analysis of the deposited data

Results flagged for a closer look

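For 9 entries the organ difference (log2 leaf over root) on day 8 differed from that on day 0 in edgeR's interaction test. Of these, 6 were miR156 guides that share nearly all their reads: miR156a, miR156c, miR156e, miR156f, miR156g and miR156l, each with a difference of -0.48 (adjusted p = 0.0441). For miR156a the log2 fold was -0.01 on day 8 and 0.47 on day 0, and the difference ranged from -0.71 to -0.17 over the alternatives. The difference was 1.47 for miR167h*, -2.38 for miR169c* and -1.33 for miR169k*. Over the alternatives it ranged from 1.06 to 1.78 for miR167h*, from -2.65 to -1.86 for miR169c* and from -1.55 to -0.98 for miR169k*. The direction held in all 18 alternatives for each entry, but the call was kept in 13 for miR167h*, 15 for miR169c*, 5 for miR169k* and 2 for miR156a.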

How the results depend on the processing

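The day 8 comparison gave 108 to 128 calls under the alternatives other than leaving out a library (113 as reported), and 105 to 116 when 1 library was left out, 51 to 63 of them higher and 53 to 57 lower in leaf. The interaction gave 4 calls with RLE, 5 with listed reads, with no filter, with DESeq2 or with the filter over the 4 day 8 libraries, 1 with the spread not robust and 0 with limma-voom, against 9 as reported. Leaving out 1 library gave 0 to 20, with 0 without either leaf library of day 0, 19 without leaf replicate 1 of day 8, 20 without leaf replicate 2 of day 8, and 5 without root replicate 1 or 2 of day 0 or root replicate 2 of day 8. Star to guide calls numbered 25 to 28 (7 to 9 higher, 16 to 19 lower) when 1 library was left out, and 41 (13 higher, 28 lower) of 90 when each strand needed at least 1 count. miR156b and miR156d turned to -0.28 with listed reads and to -0.031 with no filter (edgeR, adjusted p = 0.945). The cause was not tested. For named entries on day 8, 869 values under alternatives kept direction and call, 28 lost the call, 9 gained it and 4 reversed. All 154 values of named star to guide ratios kept both. Correlations of same-numbered libraries, as deviations from their group means, ran from -0.13 to 0.20. With 2 libraries a group they cannot show whether replicate numbers pair the libraries. A pairing was not used in the main fit. With the replicate block, day 8 gave 113 calls, the interaction 1 and the star to guide ratio 27. Shared reads, low counts of rare star strands and 2 libraries an organ limit precision.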
